A study of Mus musculus with 8 samples.

Results

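The 10 genes described here are used as markers of macrophages in the heart. They were chosen by name: Adgre1, Csf1r and Cd68 mark macrophages in general, Mrc1 and Lyve1 mark macrophages that reside in the tissue, Ccr2 and Ccl2 are a receptor and a ligand of monocyte recruitment, and Lgals3, Trem2 and Gpnmb mark macrophages laden with lipid. All 10 were found among the 50599 records in each library, and all 10 were abundant enough to receive an adjusted p. They were followed in total RNA from hearts of 12-week-old male mice on a C57BL/6N background, sequenced after depletion of cytoplasmic rRNA. The 4 libraries labelled wildtype came from mice with the Lrpprc loxP/loxP alleles and no Cre, and the 4 knockout libraries came from Lrpprc loxP/loxP mice with Cre, in which the gene is deleted in heart and skeletal muscle. Each library came from a separate heart. All animals therefore carried the floxed alleles, and the promoter that drives Cre is not given in the sources used here. The comparison asked which macrophage genes differed in hearts that had lost LRPPRC, a protein that binds mitochondrial mRNAs, and whether resident markers behaved differently from the markers of recruited and lipid-laden cells.

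The heart holds macrophages of several origins. Some were seeded before birth and renew themselves in place, and these often carry LYVE1, the mannose receptor MRC1 and TIMD4, while CCR2 marks cells that derive from blood monocytes drawn in by chemokines such as CCL2. Macrophages that take up dying cells and lipid switch on a set of genes that includes the lipid receptor TREM2, the lectin galectin-3 encoded by Lgals3, and the glycoprotein GPNMB. None of these transcripts is made by macrophages alone: Lyve1 and Mrc1 are also made by lymphatic endothelium, Lgals3 by fibroblasts and other cells, and Ccl2 by many cell types.

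The sequences upstream of the RefSeq starts of the 4 members whose groups did not overlap are shown here. RefSeq promoters (GRCm38.p6) were searched for 6 of the 10 members, namely Cd68, Mrc1, Ccr2, Lgals3, Trem2 and Gpnmb. Each stretch is written 5′ to 3′ on the strand of the gene and stops at the RefSeq start or at the first annotated exon base before it, and capitals mark a match to one of 4 motifs searched on both strands.
Cd68, chr11:69666171-69666420, minus strand: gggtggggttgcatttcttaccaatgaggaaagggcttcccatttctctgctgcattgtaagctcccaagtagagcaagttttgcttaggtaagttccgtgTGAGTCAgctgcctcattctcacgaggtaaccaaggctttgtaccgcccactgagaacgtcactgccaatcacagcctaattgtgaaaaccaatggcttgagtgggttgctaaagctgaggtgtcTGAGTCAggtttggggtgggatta
Lgals3, chr14:47373610-47373812, plus strand: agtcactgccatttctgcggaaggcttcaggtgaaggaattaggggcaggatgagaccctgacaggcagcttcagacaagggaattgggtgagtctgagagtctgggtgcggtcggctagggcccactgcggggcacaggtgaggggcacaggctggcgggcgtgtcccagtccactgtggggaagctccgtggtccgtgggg
Trem2, chr17:48346151-48346400, plus strand: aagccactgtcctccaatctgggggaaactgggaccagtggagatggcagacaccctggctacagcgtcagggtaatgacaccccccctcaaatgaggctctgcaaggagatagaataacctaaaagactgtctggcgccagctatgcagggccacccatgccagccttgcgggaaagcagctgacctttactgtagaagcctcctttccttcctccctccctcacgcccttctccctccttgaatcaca
Gpnmb, chr6:49036268-49036517, plus strand: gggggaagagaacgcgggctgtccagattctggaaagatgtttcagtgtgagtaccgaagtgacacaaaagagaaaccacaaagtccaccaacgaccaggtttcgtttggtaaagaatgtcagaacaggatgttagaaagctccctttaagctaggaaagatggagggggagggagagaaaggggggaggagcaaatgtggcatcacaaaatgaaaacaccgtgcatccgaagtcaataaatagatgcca
The motifs were the E-box CACGTG, the M-box core CATGTG, the ETS motif AGGAAGT and the AP-1 motif TGACTCA, and no matches shared bases. Cd68 held 2 matches to the AP-1 motif, which 4.46% of 32851 promoter windows of 250 bases held. No motif was matched in the stretches of Lgals3, Trem2 and Gpnmb. The 228 bases before Mrc1 (chr2:14229164-14229391) held 2 matches to the M-box core, found in 12.3% of all windows, and 1 to the ETS motif, found in 7.69%. The E-box was held by 6.02% of all windows. The nearest GENCODE transcript start lay 0 to 29 bases from the RefSeq start in these genes. The stretch of Lgals3 lies inside the annotated span of the gene, which runs from 47367751 to 47386160.

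The libraries held between 35218541 and 47743376 expected counts, of which mitochondrial rRNA took 44.0% to 46.9% in the wildtype and 65.6% to 67.8% in the knockout. Lrpprc lay between 3424 and 3946 normalised counts in the wildtype and between 504.3 and 605.4 in the knockout, so every library matched its label. A normalised count is the number of read pairs assigned to a gene after correction for library size and effective transcript length. The tissue was heart by its markers: the summed count of 6 cardiomyocyte genes lay between 780700 and 902200 in the wildtype and between 388900 and 524100 in the knockout. Knockout replicate 3 stood apart from the other knockout libraries in its leukocyte genes. All 7 MHC class II genes lay below every wildtype library there, and their sum was 548.7 normalised counts against 2009 to 3040 in the wildtype and 2095 to 2562 in the other knockout libraries. The sum of 5 proliferation genes in that library was 60.3, against 165.3 to 490.0 in the wildtype. Of 5 atrial genes, Nppa rose, Myl7 and Sln fell, and Myl4 and Bmp10 did not pass the test. Myl7 lay between 3287 and 4555 normalised counts in the wildtype, at 319.4 to 639.1 in knockout replicates 1, 2 and 4 and at 70.1 in replicate 3, and Sln between 791.8 and 1142, at 154.2 to 181.5 and at 46.1. Myl4 was at 3730 to 4917, at 2084 to 3415 and at 463.3 (DESeq2, adjusted p = 0.179), while Nppa was at 12340 to 12870 in the wildtype and at 34330 to 48630 in the knockout, lowest in replicate 3. The part of the sampled tissue in the values of the members was not tested. Wildtype replicate 3 held the highest wildtype level of Ccl2. Calls of the members that rest on these libraries are given with and without them.

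Of the 10 macrophage genes, 7 were higher in the knockout and 0 were lower (DESeq2, adjusted p under 0.05). Among all 19959 genes tested, 18.2% were called higher and 15.5% lower. The median log2 fold change was 1.09 over the 10 members and 0.005 over all genes tested. In 4 members, Cd68, Lgals3, Trem2 and Gpnmb, every knockout library lay above every wildtype library, a separation that 16.7% of all genes tested also showed. All 10 log2 fold changes were above 0, and edgeR also called 0 lower. The 7 were Csf1r, Cd68, Mrc1, Ccr2, Lgals3, Trem2 and Gpnmb. Without knockout replicate 3 the number was 8, with Adgre1 added, and without both replicates numbered 3 it was 9, with Adgre1 and Ccl2 added. In RNA from a whole tissue, more cells of a type and more RNA per cell cannot be told apart.

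The general markers came first. Adgre1 (ENSMUSG00000004730.14, chromosome 17 from 57358691 to 57483527, plus strand, GRCm38) encodes F4/80, an adhesion receptor on the surface of mouse macrophages. Its normalised count was 194.8, 229.4, 282.5 and 246.3 across the wildtype libraries (replicates 1 to 4, in this order throughout) and 347.5, 457, 81.1 and 360.1 across the knockout libraries. Knockout replicates 1, 2 and 4 lay above all wildtype libraries and knockout replicate 3 lay below all of them. The log2 fold change was 0.39 ± 0.38 (SE) and did not pass the test (DESeq2, adjusted p = 0.473). Without knockout replicate 3 it was 0.70 and passed (DESeq2, adjusted p = 0.000179).

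Csf1r (ENSMUSG00000024621.15, chromosome 18 from 61100598 to 61132149, plus strand) encodes the receptor for the growth factors CSF1 and IL-34, on which macrophages depend for survival. It measured 801, 809.6, 882.5 and 893.9 normalised counts in the wildtype and 1045, 1913, 881.3 and 1738 in the knockout. Knockout replicates 2 and 4 were the high libraries, replicate 1 was just above the wildtype and replicate 3 lay within it. Csf1r rose, with a log2 fold change of 0.72 ± 0.23 (SE, adjusted p = 0.00732 by DESeq2). Scaling to the total count of each library gave 0.45, which did not pass (DESeq2, adjusted p = 0.163).

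Cd68 (ENSMUSG00000018774.13, chromosome 11 from 69664213 to 69666153, minus strand) encodes a glycosylated protein of late endosomes and lysosomes in phagocytes. Its normalised count was 82.8, 74.3, 87.1 and 100.8 in the wildtype and 195.3, 289.7, 153.6 and 285.9 in the knockout. The groups did not overlap, although knockout replicate 3 was again the lowest of its group. Cd68 rose 2.68-fold in its mean, with a log2 fold change of 1.42 ± 0.24 (SE, adjusted p = 3.21e-08 by DESeq2).

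**Figure D1:**
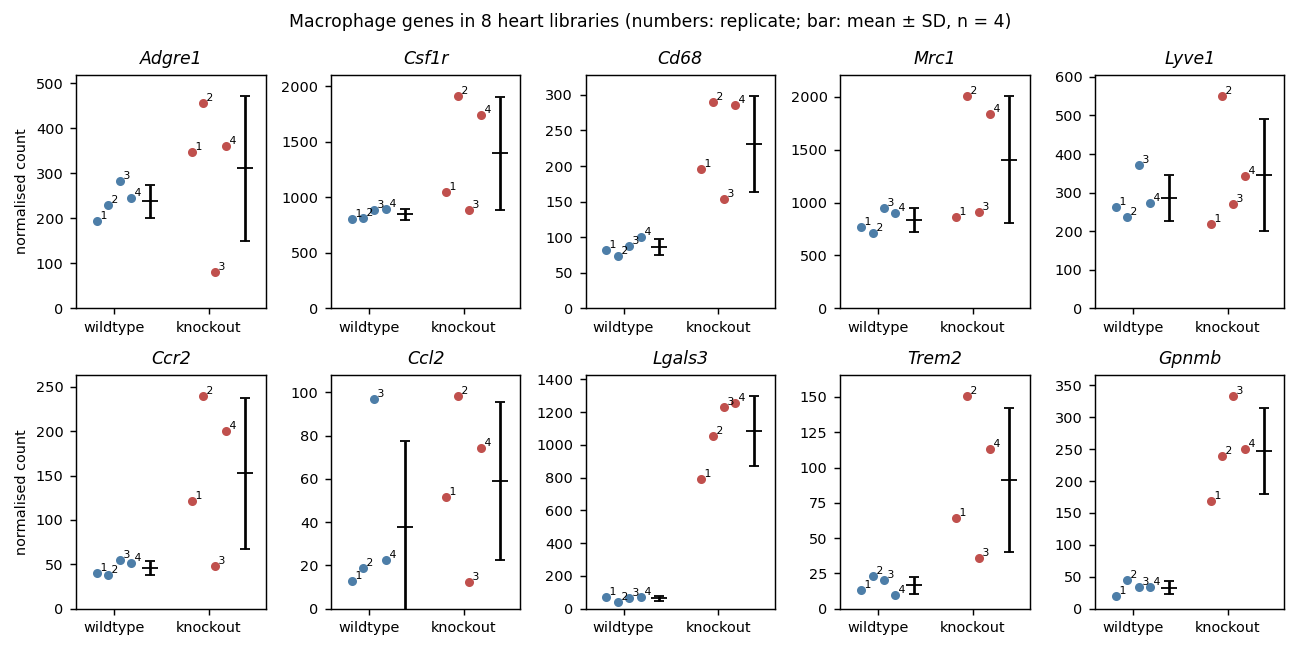
Normalised counts of the 10 members on linear axes from 0, with wildtype libraries in blue, knockout libraries in red, replicate numbers beside the points and bars for the mean ± SD (n = 4; the lower bar of wildtype Ccl2 is cut at 0). The knockout points of Cd68, Lgals3, Trem2 and Gpnmb lie above all wildtype points, while in Adgre1, Ccr2 and Ccl2 knockout replicate 3 falls to or below the wildtype level.

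The resident markers came next. Mrc1 (ENSMUSG00000026712.3, chromosome 2 from 14229392 to 14332057, plus strand) encodes the mannose receptor, which binds sugars on microbes and on glycoproteins for uptake. It measured 764.6, 709.2, 950.2 and 905.2 normalised counts in the wildtype and 862.3, 2007, 914.4 and 1835 in the knockout. Replicates 2 and 4 of the knockout were high, at 1.27 and 1.14 above the wildtype mean on the log2 scale, and replicates 1 and 3 lay within the wildtype range. Mrc1 passed the test with a log2 fold change of 0.75 ± 0.27 (SE, adjusted p = 0.0171 by DESeq2). It no longer passed with edgeR (adjusted p = 0.0506) or when knockout replicate 2 (DESeq2, adjusted p = 0.101) or knockout replicate 4 (DESeq2, adjusted p = 0.0902) was left out. The call was also lost without wildtype replicate 1 or 2 (DESeq2, adjusted p = 0.0609 and 0.0655) and with total-count scaling (DESeq2, adjusted p = 0.183).

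Lyve1 (ENSMUSG00000030787.4, chromosome 7 from 110850607 to 110863239, minus strand) encodes a receptor for hyaluronan, a sugar polymer of the extracellular matrix. Its normalised count was 262.4, 237.6, 372.1 and 273.2 in the wildtype and 218.4, 550.8, 270.7 and 342.4 in the knockout. The groups overlapped, with knockout replicate 1 below and knockout replicate 2 above every wildtype library. The log2 fold change was 0.27 ± 0.27 (SE, adjusted p = 0.483 by DESeq2), and its sign turned to -0.04 without knockout replicate 2. Lymphatic endothelium also makes Lyve1 and Mrc1, and its other markers did not move together. Of 6 such markers, Prox1 and Ccl21a fell, Pdpn rose and 3 did not pass the test. Ccl21a has near-identical copies with which its reads may be divided. The summed level of the 6 markers was 2978 to 3583 normalised counts in the wildtype and 2070 to 2697 in the knockout. Prox1 alone held 1774 to 2307 and 977.7 to 1543 of these counts, and the groups overlapped in Flt4, Mmrn1 and Reln. The part of lymphatic vessels in the values of Lyve1 and Mrc1 was not tested.

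Ccr2 and Ccl2 form the axis that brings monocytes from the blood. Ccr2 (ENSMUSG00000049103.14, chromosome 9 from 124101950 to 124113557, plus strand), the receptor, measured 39.7, 38.3, 54.7 and 51.1 normalised counts in the wildtype and 121.7, 239.5, 48.4 and 200.2 in the knockout. Knockout replicates 1, 2 and 4 lay well above the wildtype and replicate 3 lay inside its range. Ccr2 rose, with a log2 fold change of 1.73 ± 0.40 (SE, adjusted p = 0.000128 by DESeq2). Its expected count was a whole number, within 1e-06, in only 3 of 8 libraries, whereas the other 9 members had whole counts in 8 of 8. RSEM gives fractions where it divides reads between records, and no record that shares reads with Ccr2 was identified here.

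Ccl2 (ENSMUSG00000035385.5, chromosome 11 from 82035571 to 82037453, plus strand), the ligand, was scarce. Its normalised count was 13, 18.7, 96.8 and 22.5 in the wildtype and 51.6, 98.3, 12.5 and 74.1 in the knockout. The groups overlapped through the libraries numbered 3: wildtype replicate 3 was nearly as high as the highest knockout library and knockout replicate 3 was the lowest of all 8. The log2 fold change was 0.64 ± 0.66 (SE, adjusted p = 0.494 by DESeq2). Without wildtype replicate 3 it was 1.71 (DESeq2, adjusted p = 0.0144), and without both libraries numbered 3 it was 2.03 (DESeq2, adjusted p = 6.55e-06).

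The markers of lipid-laden macrophages were the most changed of the members. Lgals3 (ENSMUSG00000050335.16, chromosome 14 from 47367751 to 47386160, plus strand) encodes galectin-3, which binds galactose-containing sugars on cell surfaces and on damaged lysosomes. It measured 69.7, 42, 68.3 and 73.1 normalised counts in the wildtype and 793.9, 1053, 1233 and 1256 in the knockout. The groups were far apart, and knockout replicate 3 was among the high ones. Lgals3 rose 17.1-fold in its mean, with a log2 fold change of 4.10 ± 0.21 (SE, adjusted p = 1.29e-82 by DESeq2).

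Trem2 (ENSMUSG00000023992.14, chromosome 17 from 48346401 to 48354147, plus strand) encodes a receptor for lipids and apolipoproteins that signals through the adaptor TYROBP. Its normalised count was 13.3, 23.1, 20 and 10.1 in the wildtype and 64.1, 150.6, 36.1 and 113.4 in the knockout. The groups did not overlap, and knockout replicate 3 came closest to the wildtype. Trem2 rose 5.48-fold in its mean, with a log2 fold change of 2.47 ± 0.46 (SE, adjusted p = 7.70e-07 by DESeq2).

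Gpnmb (ENSMUSG00000029816.10, chromosome 6 from 49036546 to 49070929, plus strand) encodes a membrane glycoprotein that appears with lysosomal stress and lipid loading. It measured 19.4, 45.2, 33.5 and 34.3 normalised counts in the wildtype and 168.2, 238.9, 333 and 250 in the knockout. All knockout libraries lay above the wildtype, and here knockout replicate 3 was the highest. Gpnmb rose 7.48-fold in its mean, with a log2 fold change of 2.92 ± 0.28 (SE, adjusted p = 5.54e-23 by DESeq2).

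The knockout libraries thus did not rank alike across the members. Set against the wildtype mean on the log2 scale, knockout replicate 3 was at -1.55 for Adgre1, -1.60 for Ccl2, 0.06 for Csf1r and 0.08 for Ccr2. In the same library Lgals3 was at 4.28 and Gpnmb at 3.33. Knockout replicate 2 was at 0.94 for Adgre1, 1.18 for Csf1r, 2.38 for Ccr2, 4.06 for Lgals3 and 2.85 for Gpnmb. The library with the least Adgre1 and Ccl2 was therefore not a library with little Lgals3 or Gpnmb, whereas Trem2, at 1.12 in replicate 3 and 3.18 in replicate 2, was ordered as Ccr2 was.

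**Figure D2:**
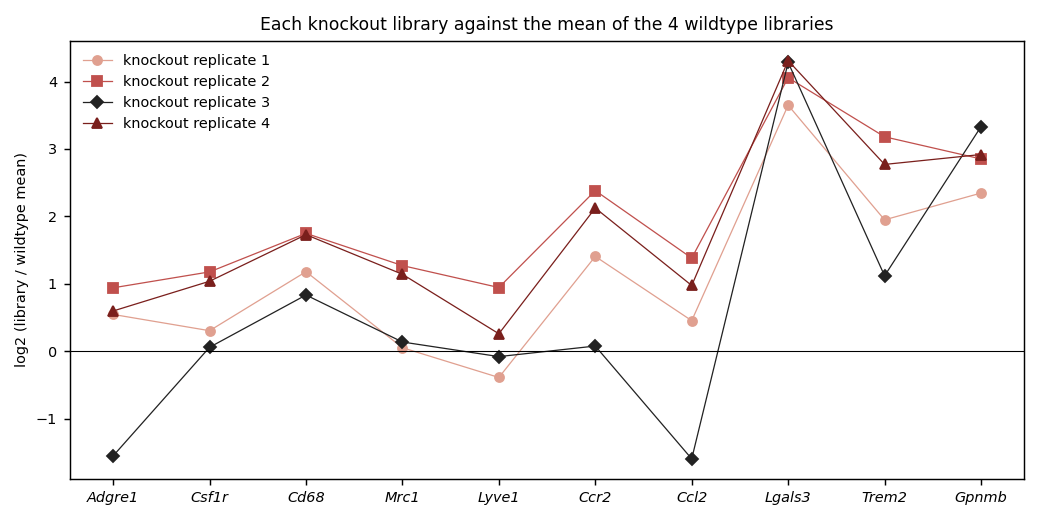
The log2 ratio of each knockout library to the mean of the 4 wildtype libraries, for the 10 members in the order of their roles, with 1 marker and line per library. The line of knockout replicate 3 lies at or below 0.14 for Adgre1, Csf1r, Mrc1, Lyve1, Ccr2 and Ccl2, stands at 0.83 for Cd68 and 1.12 for Trem2, and reaches 4.28 for Lgals3 and 3.33 for Gpnmb.

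To compare the markers of a state with a marker of macrophages in general, the fit was repeated with each library scaled so that Csf1r was level, and it then asked which genes changed by another factor than Csf1r. Of the 9 other members, 5 were higher relative to Csf1r and 0 were lower (DESeq2, adjusted p under 0.05). The number higher was 3 with a replicate block and whenever a wildtype library, knockout replicate 1 or knockout replicate 4 was left out, and 2 with Adgre1 as the reference. Among all 18939 genes tested in this way, 3.07% were called higher and 25.5% lower. None of the 3 members below 0 on this scale had an unadjusted p under 0.05 in DESeq2, and edgeR was not run on it. The Csf1r scale was treated as exact, although Csf1r rested on 760 to 1853 counts a library.

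Lgals3 was 7.45 ± 1.56 (SD, n = 4) normalised counts per 100 of Csf1r in the wildtype and 85.8 ± 37.2 in the knockout. Its log2 change relative to Csf1r was 3.52 ± 0.34 (SE, adjusted p = 1.55e-22 by DESeq2). Gpnmb went from 3.91 ± 1.30 to 20.2 ± 11.8 per 100 of Csf1r, a log2 change of 2.38 ± 0.41 (SE, adjusted p = 2.67e-07 by DESeq2). Trem2 went from 1.98 ± 0.75 to 6.16 ± 1.57, a log2 change of 1.68 ± 0.42 (SE, adjusted p = 0.000898 by DESeq2). The change of each of these 3 lipid-laden markers was thus larger than that of Csf1r, and it stayed past the threshold whichever library was left out.

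The resident markers were not called relative to Csf1r. Mrc1 was 98.0 ± 8.54 per 100 of Csf1r in the wildtype and 99.2 ± 11.1 in the knockout, with a log2 change of 0.02 ± 0.24 (SE, adjusted p = 0.961 by DESeq2) relative to Csf1r. Lyve1 was 33.7 ± 5.81 in the wildtype and 25.0 ± 5.54 in the knockout, with a log2 change of -0.43 ± 0.28 (SE, adjusted p = 0.241 by DESeq2). With Adgre1 or Ptprc as the reference in place of Csf1r, the log2 change of Mrc1 was 0.72 or 0.39, neither past the threshold (DESeq2, adjusted p = 0.801 and 0.697). Adgre1 stood at -0.36 ± 0.35 (SE, adjusted p = 0.443 by DESeq2). A p that missed the threshold does not show that these genes changed as Csf1r did, and the sizes of the standard errors leave room for differences in either direction.

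Ccr2 and Cd68 stood between. Ccr2 was 5.40 ± 0.68 per 100 of Csf1r in the wildtype and 10.3 ± 3.23 in the knockout, and knockout replicate 3 with 5.49 was inside the wildtype range. Its log2 change relative to Csf1r was 0.94 ± 0.35 (SE, adjusted p = 0.0304 by DESeq2). Cd68 went from 10.2 ± 0.88 to 16.9 ± 1.502 per 100 of Csf1r with no overlap, a log2 change of 0.73 ± 0.27 (SE, adjusted p = 0.0316 by DESeq2). Each call was lost in 9 of 11 alternative fits, though not in the same 9, and the log2 changes there lay between 0.68 and 1.39. Ccl2 had a log2 change of -0.14 ± 0.57 (SE, adjusted p = 0.866 by DESeq2). Its sign turned in 5 of 11 alternatives, to 0.88 without wildtype replicate 3 (DESeq2, adjusted p = 0.222).

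**Figure D3:**
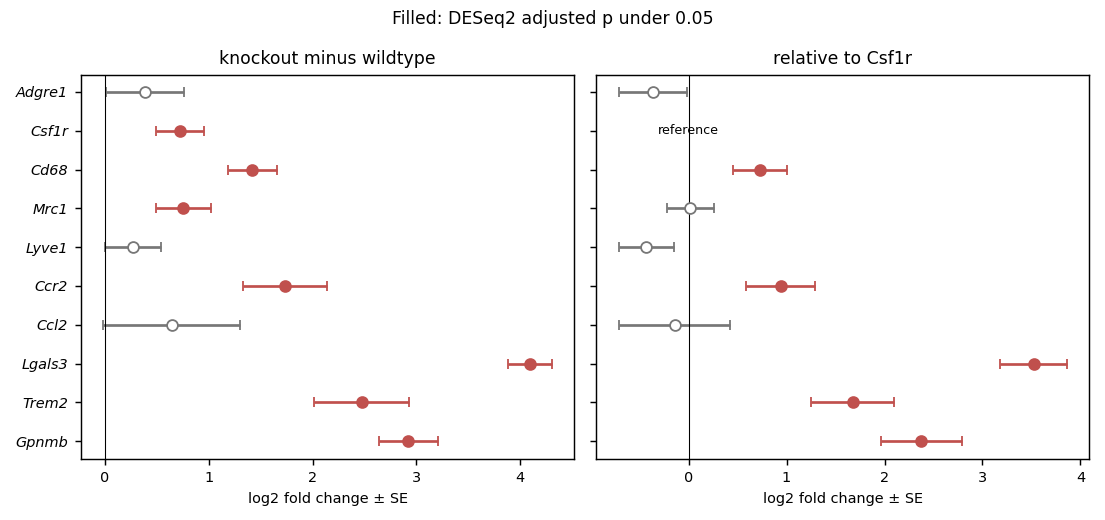
Log2 fold change ± SE of each member, knockout minus wildtype on the left and relative to Csf1r on the right, with filled points where the DESeq2 adjusted p is under 0.05. Lgals3, Gpnmb and Trem2 lie farthest to the right in both panels, and Mrc1 moves from 0.75 to 0.02 once Csf1r is held level.

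Levels were compared between genes only as TPM, a share of all transcripts that is corrected for transcript length. In the wildtype the order by mean TPM was Csf1r (6.23 ± 0.27), Mrc1 (4.54 ± 0.58), Lyve1 (3.84 ± 0.80), Cd68 (2.29 ± 0.26), Adgre1 (2.15 ± 0.31), Lgals3 (2.07 ± 0.46), Ccl2 (1.58 ± 1.67), Trem2 (0.40 ± 0.14), Ccr2 (0.40 ± 0.07) and Gpnmb (0.33 ± 0.11; all SD, n = 4). Mrc1 and Lyve1 differed by less than their spread, as did all neighbours from Cd68 downwards, where Ccl2 had the widest spread. In the knockout Lgals3 stood first with 32.5 ± 7.37 TPM, followed by Csf1r with 9.53 ± 3.99, Mrc1 with 7.14 ± 3.44 and Cd68 with 5.69 ± 2.01. Lyve1 had 4.29 ± 1.98, Adgre1 2.61 ± 1.41, Ccl2 2.32 ± 1.495, Gpnmb 2.26 ± 0.57, Trem2 2.05 ± 1.23 and Ccr2 1.25 ± 0.74 TPM. Among the knockout libraries the gap below Lgals3 exceeded the spread and the steps between the genes below it did not. TPM over all records also counts mitochondrial rRNA, and rescaled to nuclear genes the mean of Lgals3 was 3.65 ± 0.85 in the wildtype and 76.9 ± 17.4 in the knockout.

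The genes whose level pattern was most like that of 3 members were sought where the mean count was at least 50, by the root mean square (RMS) difference of their centred log2 profiles over the 8 libraries. Nearest to Csf1r were C1qc, a subunit of complement C1q made by macrophages, with an RMS difference of 0.08, and then Pcsk5 (0.09), Myof (0.10), S100a6 (0.11) and Anxa2 (0.11). C1qc measured 473.5 to 600.6 normalised counts in the wildtype and 623, 1262, 578.5 and 1175 in the knockout, with the same pair of high libraries as Csf1r. Nearest to Lyve1 were Ip6k2 (0.17), Olfml2b (0.18), Rnase4 (0.18) and Slfn2 (0.19). Nearest to Gpnmb were Ccdc136 (0.26), Loxl4 (0.27), Map1b (0.28), Il17ra (0.32) and Cacnb1 (0.32), none of which is on a macrophage list used here. Map1b, a protein of microtubules, measured 879.7 to 1102 in the wildtype and 4880, 5632, 10880 and 9090 in the knockout.

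Further macrophage genes, in 12 lists of 167 genes, were described from the same fit. Of the 163 genes tested, 69 were higher and 14 were lower, with a median log2 fold change of 0.72. Among all genes tested, 18.2% were called higher and 15.5% lower. Of 19 other general macrophage genes, 15 rose and 0 fell, with a median of 0.95. Spi1, the transcription factor PU.1 of myeloid cells, was at 33.4 to 43.8 normalised counts in the wildtype and 67.9, 162.2, 39.9 and 136.4 in the knockout. Ctss, a lysosomal protease of antigen-presenting cells, was at 183.9 to 260.2 and at 388.8, 909.7, 342.2 and 789.8, with no overlap. Fcgr1, an Fc receptor, changed by 1.35 on the log2 scale (adjusted p = 0.0117 by DESeq2). The list's sum was 4501 to 6195 normalised counts in the wildtype, 4874 in knockout replicate 3 and 6660 to 12400 in the other knockout libraries. With total-count scaling 4 of the 19 genes were called higher, and without knockout replicate 3 the number was 17.

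Resident-macrophage genes went in both directions. Of 20, 3 rose, 4 fell and 13 did not pass the test, with a median log2 fold change of 0.30, and these shares are near the 18.2% higher and 15.5% lower among all genes tested. Retnla, a secreted protein of alternatively activated macrophages, fell from 55.3, 35.8, 19 and 42.4 normalised counts to 4.48, 3.48, 0 and 2.82, a log2 fold change of -3.81 ± 0.64 (SE, adjusted p = 2.85e-08 by DESeq2). Timd4, a phosphatidylserine receptor of long-lived resident macrophages, fell by 1.48 on the log2 scale (DESeq2, adjusted p = 0.0102). Mgl2, a galactose-binding lectin, fell by 1.90 (DESeq2, adjusted p = 0.000271), and RSEM may divide its reads with its close relative Clec10a. The fourth was Cd209g, which all knockout libraries held at the floor of 3 counts or fewer. Those that rose were Cd163, the scavenger receptor for haemoglobin, with 1.06 (DESeq2, adjusted p = 0.000409), Vsig4, a complement receptor, with 2.24 (DESeq2, adjusted p = 7.74e-07), and the chemokine Ccl8 with 3.57 (DESeq2, adjusted p = 0.000182). In knockout replicate 3, 13 of the 20 genes lay below every wildtype library. Without that library 7 genes were called higher and 3 lower. Scaling to total counts gave 3 higher and 6 lower, and totals that excluded mitochondrial rRNA gave 9 higher and 2 lower.

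Relative to Csf1r, Timd4 was at -2.23 (DESeq2, adjusted p = 0.000161), Folr2, a folate receptor, at -1.29 (DESeq2, adjusted p = 0.000782) and Retnla at -4.55 (DESeq2, adjusted p = 7.61e-10). Vsig4 was at 1.47 (DESeq2, adjusted p = 0.00125). The resident list therefore held genes that lagged behind Csf1r and genes that exceeded it.

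Of the 13 tested genes of recruited monocytes, 4 rose and 0 fell, with a median of 1.03, or 0.92 with genes at the floor set to their bound, beside 18.2% higher and 15.5% lower among all genes tested. Chil3, a chitinase-like protein, was at 0 to 5.44 in the wildtype and at 0.84, 84.2, 26.9 and 38.9 in the knockout. It was thus highest in knockout replicates 2 and 4 and hardly present in replicate 1. Ace, the angiotensin-converting enzyme and also a gene of endothelium, rose by 1.03 on the log2 scale with no overlap (adjusted p = 5.08e-06 by DESeq2), and Ly6c2, the defining marker of classical monocytes, had 0.17 (DESeq2, adjusted p = 0.652). With edgeR 2 of the 13 were called higher, which is near that share. By DESeq2 the number was 6 without knockout replicate 3 and 8 when scaled to totals that excluded mitochondrial rRNA.

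Of 18 other genes of lipid-laden macrophages, 7 rose, 2 fell and 9 did not pass the test, with a median of 0.67, beside 18.2% higher and 15.5% lower among all genes. The number higher was 8 without knockout replicate 3 and 13, with 1 lower, when scaled to totals that excluded mitochondrial rRNA. Spp1, the matrix protein osteopontin, was at 14.9 to 24.3 normalised counts in the wildtype and at 17.9, 707.9, 12.7 and 818.3 in the knockout, so that 2 libraries carried its whole rise. Cd63, a tetraspanin of late endosomes, was even in comparison, with 316.4 to 375.2 in the wildtype and 1012, 1215, 1160 and 1083 in the knockout. Ctsl, the protease cathepsin L, was at 1814 to 2453 and at 7090, 8922, 16660 and 8028, highest in replicate 3. The genes that fell were Lpl, lipoprotein lipase, with -1.14 (DESeq2, adjusted p = 6.82e-05), which heart muscle makes in quantity, and Mmp12, a macrophage elastase, with -0.40 (DESeq2, adjusted p = 0.0376). Itgax, which encodes CD11c, was at 0 in knockout replicate 3 and had 1.55 (DESeq2, adjusted p = 0.0600). Relative to Csf1r, Spp1 (3.39), Cd63 (1.17), Ctsd (0.86) and Ctsl (1.83) were called higher, and Lpl (-1.60) and Mmp12 (-0.97) lower. Plin2 received no adjusted p on that scale, and the other genes of this list were not called (DESeq2, adjusted p under 0.05).

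Genes around these markers were described in the same way. Of 11 genes of TREM2 signalling, 7 rose and 0 fell, beside 18.2% higher and 15.5% lower among all genes tested. Without knockout replicate 3 the number higher was 8. Plcg2, the phospholipase downstream of the receptor, had 1.45 with no overlap (DESeq2, adjusted p = 1.85e-19). Ms4a7 and Ms4a6d, membrane proteins of myeloid cells, had 1.89 and 2.33. Of 18 lysosomal genes, 11 rose and 2 fell, beside 18.2% and 15.5% among all genes tested, and scaling to total counts gave 7 higher and 3 lower. Sqstm1, the autophagy receptor p62, went from 3881 to 4758 normalised counts in the wildtype to 16780, 16980, 24650 and 18340 in the knockout. Ctsk, a collagen-degrading protease, had 2.25 and Ctsz 1.39, both with no overlap. The 2 that fell were Mitf with -1.11 and Tfeb with -0.32, transcription factors of lysosome and melanocyte genes. The sum of the lysosomal list was 19580 to 21540 in the wildtype and 35530 to 50080 in the knockout, highest in replicate 3. Sqstm1 alone held 3881 to 4758 and 16780 to 24650 of these counts, a large part of the rise. Most of these genes are expressed in every cell type of the heart.

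For the lists of general, recruited, TREM2 and efferocytosis genes, in which 0 fell, edgeR also called 0 lower and 0 genes below 0 had an unadjusted p under 0.05 in DESeq2. Without knockout replicate 3, 1 efferocytosis gene was called lower. Of 10 genes of efferocytosis and scavenging, 6 rose and 0 fell, beside 18.2% higher and 15.5% lower among all genes tested. Those that rose included Msr1, a scavenger receptor, with 1.18, Tyro3, a receptor kinase for dying cells, with 1.13, and Itgb5, an integrin subunit, with 0.94. Of 7 growth-factor genes tested, the receptor genes Csf2rb (1.59) and Il4ra (1.15) rose, and Csf1, a ligand of CSF1R, had -0.32 (DESeq2, adjusted p = 0.294). Totals that excluded mitochondrial rRNA gave 5 growth-factor genes higher, and the 2 in the fit reported compare with 18.2% among all genes tested. Of 18 chemokine genes tested, 4 rose and 4 fell, near the shares of 18.2% and 15.5% among all genes tested. Ccl9 had 1.02, while Cxcl9, a chemokine induced by interferon gamma, fell from between 32.2 and 78.1 normalised counts to between 6.68 and 15.8, and Cxcl12 had -0.55. With edgeR 1 chemokine gene was called higher, and by DESeq2 there were 2 with the replicate block or total-count scaling and 8 when the totals excluded mitochondrial rRNA. Of 12 chemokine receptors, 6 rose and 1 fell, beside 18.2% higher and 15.5% lower among all genes tested. Ccr1 had 2.57 and Ackr4 1.68, and Ackr3, a scavenging receptor for CXCL12, fell by 1.45 with no overlap. With edgeR or the replicate block 3 receptors were called higher, and without knockout replicate 3 the number was 4 by DESeq2.

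Of 10 inflammatory genes tested, 4 rose and 1 fell, beside 18.2% higher and 15.5% lower among all genes tested. The number higher was 3 with edgeR or total-count scaling, and 5 without knockout replicate 3. Totals that excluded mitochondrial rRNA gave 6 higher and 0 lower. Il6 was at 0.33 to 3.15 normalised counts in the wildtype and at 25.5, 55, 3.86 and 73.2 in the knockout, on average at least 14.4-fold higher against a floor of 3 counts per library. Ptgs2, cyclooxygenase 2, had 1.59 (DESeq2, adjusted p = 0.0121), and Nos2, the inducible nitric oxide synthase, fell by 1.04 with no overlap (DESeq2, adjusted p = 0.00986). None of 7 genes of MHC class II presentation passed the test in either direction (0 called by edgeR as well, and 0 with an unadjusted p under 0.05 in DESeq2), and their median was -0.21. Their sum was 548.7 in knockout replicate 3, and 2095 to 2562 in the other knockout libraries, inside the wildtype range of 2009 to 3040. Without replicate 3 the calls were also 0, and that median was not computed. Relative to Csf1r, Cd74 (-1.17) and H2-Eb1 (-0.97) were called lower (DESeq2, adjusted p = 0.00480 and 0.0443), and the others were below 0 and not called.

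**Figure D4:**
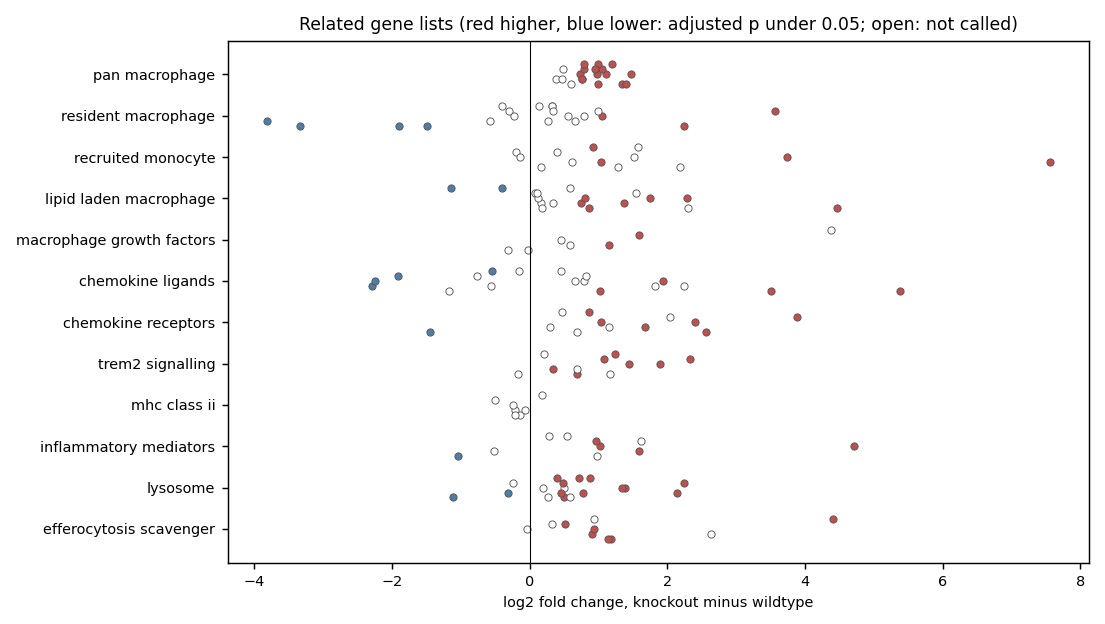
Log2 fold change of each tested gene in the 12 lists of related genes, 1 row per list, with red for higher, blue for lower and open points for genes that did not pass (DESeq2, adjusted p under 0.05). The 19 general macrophage genes all lie above 0, the resident list reaches from -3.81 to 3.57, and the 7 MHC class II genes lie between -0.50 and 0.17.

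Markers of other cells were read beside these values. Of 78 such genes, 73 were tested, 12 were higher and 10 lower, with a median log2 fold change of 0.06. These counts are near the shares of all genes tested, 18.2% higher and 15.5% lower. All 5 tested neutrophil genes rose, among them S100a8 with 3.99, S100a9 with 3.11 and Csf3r with 1.79, and the defining gene Ly6g was at 0 in all 8 libraries. With edgeR 3 of the 5 were called higher, and without knockout replicate 3 the number was 4 by DESeq2. Their sum was 27.5 to 75.1 normalised counts in the wildtype and 86.9 to 615.4 in the knockout, highest in knockout replicates 2 and 4, in which Ccr2, Trem2 and Spp1 were also highest. Among 7 fibroblast genes, Postn, periostin of activated fibroblasts, rose by 2.66 on the log2 scale with no overlap, Col1a1 rose by 1.48, and 5 did not pass the test. Of the cardiomyocyte genes 4 of 6 fell, by 1.05 for Tnni3, 1.402 for Ryr2 and 1.46 for Pln, while Tnnt2 and Actn2 did not pass the test. Proliferation genes, 2 of 5 called higher, were 5 of 5 without knockout replicate 3, and Cdk1 was at 47.7, 99.7, 2.71 and 68.2 in the knockout against 4.43 to 22 in the wildtype. Of the genes of T and NK cells, B cells, mast cells and blood endothelium, 0 were called in the 19 tested (DESeq2; edgeR also called 0), with 2, Pecam1 and Kdr of blood endothelium, at an unadjusted p under 0.05. Without knockout replicate 3, 2 genes of blood endothelium were called higher. Scaling to total counts gave 2 of them and 1 mast cell gene lower, the replicate block gave 1 of them lower, and totals that excluded mitochondrial rRNA gave 3 of them higher. What neutrophils, fibroblasts and cardiomyocytes contribute to the members' values was not tested.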

How the data were processed

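Total RNA of 8 hearts was sequenced, and libraries were grouped by their titles as 4 wildtype and 4 knockout. The authors quantified the read pairs by RSEM 1.2.31 (bowtie2, reverse strand) against GENCODE transcripts with added mitochondrial sequences. The deposited expected counts are estimated counts that need not be whole, since RSEM divides reads shared between genes, and the deposited TPM values, also from the authors, served here only to order genes by level. The effective lengths deposited beside them are other values by the authors. The authors' tables of comparisons (mean counts, fold changes and p-values) and of normalised counts, with 8 columns that match no label, were not used.

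Expected counts were rounded and fitted across all genes with DESeq2 1.42.0 in R 4.3.3, with effective lengths as offsets, genotype as the only term and Benjamini-Hochberg adjustment over all genes at a threshold of 0.05. A second fit scaled the libraries to Csf1r. Alternatives comprised edgeR 4.0.16 (TMM), a fit without length offsets, a filter of at least 10 counts in 4 libraries, 3 other scalings, a replicate block, each library left out, Adgre1 or Ptprc as the reference, and TPM of nuclear genes. Leaving out both libraries numbered 3 was chosen after seeing the data. A pseudocount of 1 was added before logarithms in the likeness of profiles. Fits were tested on simulated data.

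The members and gene lists were chosen with earlier results of these data known. The genes named were the members, Lrpprc, the 3 most changed genes past the threshold with a mean of at least 20 in each list, and the 5 genes most like Csf1r, Lyve1 and Gpnmb. Some genes that this rule names are not reported here. Other genes named were chosen after their values were seen. Gene symbols and GRCm38 coordinates from GENCODE were matched to 50339 of 50563 identifiers. Within the groups the chi-square per degree of freedom between libraries lay between 4.40 and 48.3, so none counted as a duplicate. Depth was 35218541 to 47743376 counts. Bounds against the floor of 3 counts cover counting error only.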

Additional observations from a re-analysis of the deposited data

Results flagged for a closer look

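In 2 of the 20 groups of 4 values tested, 10 members in 2 genotypes, 1 library stood far from the other 3 of its group, and chance alone flags about 5% of such groups. The normalised count of Ccl2 was 96.8 in wildtype replicate 3, while the other wildtype libraries held 13 to 22.5. The normalised count of Lgals3 was 42.0 in wildtype replicate 2, below the other wildtype libraries at 68.3 to 73.1, and the call of Lgals3 did not depend on it.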

How the results depend on the processing

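Cd68, Ccr2, Lgals3, Trem2 and Gpnmb stayed higher past the threshold in all 16 alternatives, with log2 fold changes of 1.15 to 1.86, 1.43 to 2.18, 3.81 to 4.52, 2.13 to 2.92 and 2.62 to 3.34. Csf1r lost its call in 1 alternative and Mrc1 in 6. Scaling to total counts put Lyve1 at -0.0069, and without mitochondrial rRNA in those totals it passed at 0.71. Leaving out 1 library or both numbered 3 put it between -0.0416 (knockout replicate 2) and 0.5193. The median log2 fold change of genes with a mean of at least 50 was 0.04 in the fit reported, -0.26 after scaling to total counts and 0.46 when those totals excluded mitochondrial rRNA. Under these scalings 1924 and 7950 genes were called higher and 5912 and 1111 lower, while 5 and 8 members were called higher. Leaving out 1 library at a time gave 3025 to 3722 genes called higher, 2504 to 3300 lower, 6 to 8 members higher and 0 lower.

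Relative to Csf1r, the number of members called higher was 3 to 5 when 1 library was left out, 3 in each case except without knockout replicate 2 (4) and without knockout replicate 3 (5). It was 2 with Adgre1 and 4 with Ptprc as the reference, and Gpnmb received no adjusted p with Adgre1 as the reference, so that Lgals3 and Trem2 were the members called there. Some uncalled values changed sign. Mrc1 lay between -0.0326 (without wildtype replicate 2) and 0.0959 (without knockout replicate 1) and was at 0.72 with Adgre1 and 0.39 with Ptprc as the reference, Lyve1 was at 0.34 with Adgre1 as the reference, and Ccl2 was at 0.31 with Adgre1, 0.11 with Ptprc, and between -0.4118 (without wildtype replicate 1) and 0.8806 (without wildtype replicate 3).

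Replicate numbers were not treated as pairs in the fit reported. Same-numbered libraries deviated from their group means with correlations of -0.07 to 0.07, and differently numbered ones with -0.117 to 0.133. Such correlations cannot decide whether the mice were paired. With a replicate block 7 members and 2929 genes in all were called higher and 2596 genes lower, and relative to Csf1r the replicate block left 3 members higher and put Ccl2 at 0.32. Of 832 list counts under the alternatives, 734 stayed within 1.5 times the reported count and 98 moved. The causes of these moves were not tested. Trem2, Ccl2, Ccr2 and Gpnmb rested on 10 to 129, 11 to 114, 36 to 225 and 23 to 311 counts per library, which limits their precision.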
